A study of Mus musculus with 4 samples.

Results

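The genes described here are 9 genes of the unfolded protein response and the integrated stress response, Hspa5, Sdf2l1, Herpud1, Xbp1, Atf4, Ddit3, Trib3, Asns and Chac1. They were taken by symbol from a named list and make up 9 of the 31053 genes counted. All 9 had at least 1 read molecule in each of the 4 libraries. The study asked how the aryl hydrocarbon receptor (AhR), a ligand-activated transcription factor, acts in the hepatitis that concanavalin A (ConA) causes in mice. ConA, a lectin of the jack bean, activates T cells. TCDD, a dioxin, and FICZ, a photoproduct of tryptophan, are both AhR ligands. Mononuclear cells of C57BL/6 mice aged 8 to 10 weeks were isolated from the liver by enzymatic dissociation and a Percoll gradient, and single-cell libraries were made with a droplet assay that reads the start of transcripts. One untreated library (Naïve) and libraries taken 24 hours after ConA from mice given vehicle (ConA+Veh), TCDD (ConA+TCDD) or FICZ (ConA+FICZ) were sequenced. Each group held 1 library, the number of mice in a library is not given in the sources used here, and mouse, library and treatment cannot be told apart.

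When unfolded proteins build up in the endoplasmic reticulum, the sensors IRE1, PERK and ATF6 raise the transcription of chaperones and of the machinery that degrades misfolded proteins. PERK is also 1 of the kinases that phosphorylate the translation factor eIF2, which lowers protein synthesis while it lets ATF4 be translated. The kinases GCN2, PKR and HRI reach the same point from amino acid shortage, viral RNA and heme shortage, and this shared arm is called the integrated stress response. In lymphocytes both arms also follow activation and secretion, so a rise of their genes is not by itself a sign of damage.

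Among the members that act in the endoplasmic reticulum, Hspa5 (ENSMUSG00000026864, chr2:34771970-34777547, plus strand) encodes BiP, its main Hsp70 chaperone. Sdf2l1 (ENSMUSG00000022769, chr16:17130138-17132383, minus strand) encodes a partner of BiP and its cochaperones. Herpud1 (ENSMUSG00000031770, chr8:94386438-94395377, plus strand) encodes a membrane protein of the degradation machinery. Among the transcription factors, Xbp1 (ENSMUSG00000020484, chr11:5520659-5525893, plus strand) becomes active when IRE1 splices its messenger RNA, and this splicing cannot be read from counts per gene. Atf4 (ENSMUSG00000042406, chr15:80255184-80257541, plus strand) is regulated mainly at translation, which RNA counts do not show. Ddit3 (ENSMUSG00000025408, chr10:127290774-127296288, plus strand) encodes CHOP, a factor that promotes cell death in long stress. Trib3 (ENSMUSG00000032715, chr2:152337422-152344032, minus strand) encodes a pseudokinase induced by ATF4 and CHOP. Asns (ENSMUSG00000029752, chr6:7675169-7693254, minus strand) encodes asparagine synthetase, and Chac1 (ENSMUSG00000027313, chr2:119351229-119354381, plus strand) an enzyme that degrades glutathione. All 9 are protein-coding in the GENCODE M21 annotation of GRCm38. Ddit3 overlaps Mars on the other strand and a second annotated Ddit3 gene on its own strand, and Herpud1 overlaps the antisense gene Gm15890, so reads of these pairs may have been divided or left out. Each symbol was read from its first entry in the counts, so the values of Ddit3 leave out any further entry of that symbol.

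The promoters of these genes are where the response is read from the genome, so the 5 matches found in a search for 4 known motifs are shown. The 250 bases before the start of each gene in the RefSeq promoter table of GRCm38.p6 were searched on both strands for the endoplasmic reticulum stress element ERSE (CCAAT and CCACG with 9 bases of any kind between them), for ERSE-II (ATTGG and CCACG with 1 base between them), for the unfolded protein response element UPRE (TGACGTGG), and for the letters of the ATF4 site CARE (TGATGNAA). Capitals mark the fixed bases of a match, 5′ to 3′ on the strand of the gene.
Hspa5, ERSE, chr2:34772020-34772048, plus strand: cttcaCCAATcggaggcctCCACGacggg
Herpud1, ERSE-II, chr8:94386368-94386396, plus strand: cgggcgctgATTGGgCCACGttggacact
Herpud1, CARE read on the other strand, chr8:94386307-94386334, plus strand: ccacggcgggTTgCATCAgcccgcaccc
Asns, CARE, chr6:7693215-7693242, minus strand: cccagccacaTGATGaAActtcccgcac
Chac1, CARE read on the other strand, chr2:119351039-119351066, plus strand: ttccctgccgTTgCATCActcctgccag
The ERSE of Hspa5 lay 65 to 47 bases before the start, and the ERSE-II of Herpud1 52 to 42 bases before it. Among all 32851 promoter windows of this length 0.113% held the ERSE, 0.0304% the ERSE-II, 0.563% the UPRE and 3.45% the CARE letters. The letters of the UPRE were found in none of the 9 windows, and none of the 4 motifs in those of Sdf2l1, Xbp1, Atf4, Ddit3 and Trib3. For Trib3, unlike the other members, the bases just after the RefSeq start were not found in a GENCODE transcript of the gene. Its window may thus not lie before the start used there. For Hspa5 and Asns the RefSeq start lies inside the GENCODE gene, which begins further upstream, so that their stretches fall within the gene bounds given above.

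The 4 libraries held 1880 to 2779 cells and 5952445 to 19252211 unique molecular identifiers (UMIs), each of which stands for 1 captured RNA molecule. Naïve cells were shallower, with a median of 2161 UMIs against 3147 to 3984 in the other libraries. Cells were assigned to types by gates, each a short list of marker genes of which a cell had to hold at least 2 or 3. Cells that passed both the T and the NK gate counted as T cells, and a few other overlaps were also settled by a fixed order. The gates took 7433 of 9300 cells, 575 cells that passed 2 gates with no such order were set aside, and 1292 passed none. Other markers of each type, not used in the gates, were at least 2-fold higher inside the gate for 5 of 5 genes in B, NK, mononuclear phagocyte, neutrophil and endothelial cells and for 4 of 5 in T cells. In the library order Naïve, then vehicle, TCDD and FICZ, the B gate held 1081, 817, 411 and 777 cells and the T gate 476, 729, 608 and 520. The NK gate held 134, 234, 168 and 177 cells and the phagocyte gate 64, 185, 28 and 177. A level is given as UMIs of a gene in CPM (counts per 1000000 UMIs of the gated cells) with its 95% Poisson interval, which covers counting error only, and groups of fewer than 20 cells received none.

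The chaperone Hspa5 differed between cell types in every library. In Naïve it was at 350 CPM (interval 327 to 373) in B cells and at 416 CPM (387 to 447) in T cells. NK cells held 602 CPM (512 to 704) and phagocytes 977 CPM (867 to 1097). The order B, T, NK, phagocytes was separated at each step by intervals that did not overlap. Part of the phagocyte level rested on few cells, since 1 cell held 76 of its 286 Hspa5 UMIs. In ConA+Veh, B cells held 501 CPM (480 to 521), T cells 780 CPM (760 to 800), and NK cells 1211 CPM (1137 to 1289). Endothelial cells, with 1585 CPM (1433 to 1749), stood above NK cells and above the 1010 CPM (954 to 1068) of phagocytes. B cells were again lowest of these types. In ConA+TCDD, B cells held 547 CPM (516 to 579), T cells 617 CPM (597 to 637) and NK cells 860 CPM (788 to 937). The 28 phagocytes of that library held 459 CPM (371 to 563), an interval that overlapped that of its B cells. In ConA+FICZ, B cells held 413 CPM (394 to 433), T cells 504 CPM (486 to 522) and NK cells 727 CPM (657 to 802), while phagocytes held 1577 CPM (1501 to 1657). Phagocytes were thus highest of these 4 types in Naïve and ConA+FICZ but not in ConA+TCDD.

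Sdf2l1, the partner of BiP, was low in Naïve lymphocytes. Naïve B cells held 21.3 CPM (16.1 to 27.7), and those of ConA+Veh 140 CPM (129 to 151). B cells of ConA+TCDD stood at 130 CPM (115 to 146) and of ConA+FICZ at 102 CPM (92.5 to 112). For T cells the Naïve level of 46.2 CPM (36.8 to 57.3) stood against 148 CPM (140 to 157), 121 CPM (112 to 130) and 156 CPM (147 to 167) for the ConA libraries in the same order. Naïve NK cells held 60.6 CPM (34.7 to 98.4) against 293 CPM (257 to 332), 233 CPM (196 to 274) and 210 CPM (173 to 253). In each of these 3 lymphocyte types the Naïve interval lay below those of all 3 ConA libraries. In phagocytes Sdf2l1 stood at 273 CPM (217 to 340), 393 CPM (359 to 430), 128 CPM (83.9 to 188) and 511 CPM (468 to 557), so that ConA+TCDD, not Naïve, was lowest. Neutrophils were low in every ConA library, with 17.1 CPM (3.53 to 50.1), 15.4 CPM (0.390 to 85.8) and 20.6 CPM (9.43 to 39.1) on 3, 1 and 9 UMIs.

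Herpud1, of the degradation machinery, varied less. Naïve B cells held 119 CPM (106 to 132) of it, and B cells of the ConA libraries 81.1 CPM (73.1 to 89.8), 88.2 CPM (76.0 to 102) and 86.1 CPM (77.4 to 95.4). The Naïve interval thus lay above the other 3. T cells held 72.4 CPM (60.5 to 86.0) in Naïve and 54.4 to 58.7 CPM in the ConA libraries. NK cells went the other way, with 45.5 CPM (23.5 to 79.4) from 12 UMIs in Naïve and 86.7 to 95.2 CPM in the ConA libraries.

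Of the transcription factors, Xbp1 separated cell types but hardly libraries. B cells held 41.0 to 49.6 CPM and T cells 49.2 to 55.3 CPM over the 4 libraries. NK cells held 83.4 to 121 CPM and phagocytes 202 to 239 CPM. The intervals of phagocytes lay above those of B and T cells in all 4 libraries. Within each of these 4 cell types the intervals of the 4 libraries overlapped. In B cells of ConA+FICZ 1 cell held 24 of the 210 Xbp1 UMIs, and all 4 cells that passed the gate of plasma cells, a type that depends on Xbp1, held Xbp1 UMIs.

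Atf4 was highest in Naïve among B cells, at 249 CPM (230 to 269). B cells of the ConA libraries held 144 CPM (134 to 156) with vehicle, 177 CPM (159 to 196) with TCDD and 135 CPM (124 to 147) with FICZ. T cells showed the same order, with 197 CPM (177 to 218), 141 CPM (133 to 150), 173 CPM (163 to 184) and 141 CPM (131 to 150). In both types ConA+TCDD lay between Naïve and the other ConA libraries, and in T cells its interval overlapped that of Naïve. NK cells held 258, 198, 175 and 177 CPM, with overlapping intervals between the ConA libraries. In phagocytes Atf4 was at 174 CPM (130 to 229), 182 CPM (159 to 207), 331 CPM (256 to 420) and 175 CPM (150 to 203). There ConA+TCDD stood above the others, on 67 UMIs in 28 cells.

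Ddit3 was at 34.3, 29.8, 27.4 and 22.2 CPM in B cells, at 22.8, 19.8, 18.3 and 16.3 CPM in T cells and at 79.6, 43.9, 42.6 and 57.2 CPM in NK cells. NK cells stood above T cells in all 4 libraries, with intervals that did not overlap. Neutrophils of ConA+TCDD held 216 CPM (118 to 362) from 14 UMIs in 33 cells, the highest level of this gene in any gate of at least 20 cells. Of these 14 Ddit3 UMIs 1 cell held 7.

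The effectors Trib3, Asns and Chac1 were near the limit of detection. The gated cells held, all together, 366 UMIs of Asns, 184 of Trib3 and 83 of Chac1. Asns was listed at 0 in Naïve B cells, NK cells, phagocytes and endothelial cells, and at 3.34 CPM (1.23 to 7.27) in Naïve T cells, from 6 UMIs. Those 6 UMIs were all the Asns of the Naïve library. In ConA+Veh it was at 1.08 CPM (0.351 to 2.52) in B cells, 9.19 CPM (7.16 to 11.6) in T cells and 27.8 CPM (19.3 to 38.9) in phagocytes. B cells thus held less than T cells, and T cells less than phagocytes. Phagocytes of ConA+TCDD held 9.88 CPM (1.20 to 35.7), from 2 UMIs, and those of ConA+FICZ 24.6 CPM (15.9 to 36.3). In ConA+Veh phagocytes 1 cell held 12 of the 34 Asns UMIs. Trib3 was at 2.16 to 2.84 CPM in B cells and 3.57 to 6.29 CPM in T cells over the libraries. Chac1 was listed at 0 in Naïve T cells, which allows a level of up to 2.05 CPM, and was at 2.63, 2.89 and 1.29 CPM in the ConA libraries.

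**Figure D1:**
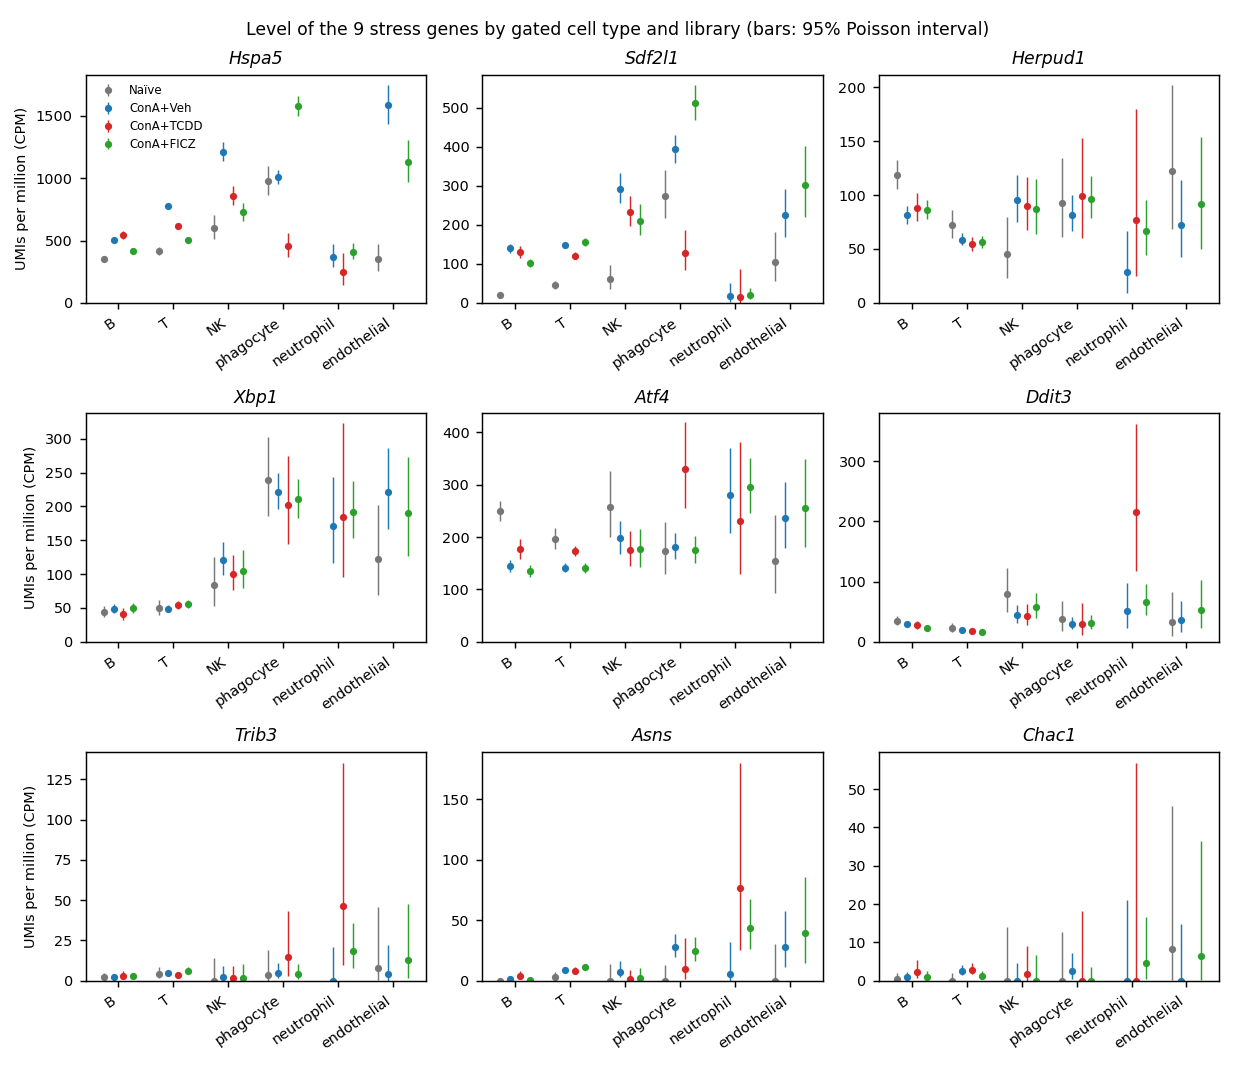
Level of each of the 9 genes in CPM (linear axis from 0) by gated cell type, with 1 point per library and its 95% Poisson interval, for groups of at least 20 cells. Sdf2l1 in B, T and NK cells is lowest in Naïve, Xbp1 differs between cell types more than between libraries, and Hspa5 in phagocytes runs from 459 CPM in ConA+TCDD to 1577 CPM in ConA+FICZ.

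The first comparison, ConA+Veh over Naïve, addresses which stress genes were at another level 24 hours after ConA. A gene was called where its CPM differed at least 2-fold and the 95% binomial interval of the ratio did not include 1, and genes needed 20 UMIs in both libraries together. In B cells 1 of the 6 members with enough UMIs was called higher and 0 lower, while 7.87% of all genes were called higher and 18.5% lower. That gene was Sdf2l1, which was 6.54-fold higher in ConA+Veh (log2 ratio 2.71, interval 2.31 to 3.13). Hspa5 in B cells had a log2 ratio of 0.52 (0.41 to 0.63), Herpud1 of -0.55 (-0.77 to -0.33) and Atf4 of -0.79 (-0.94 to -0.63), all short of 2-fold. The median log2 ratio was -0.03 over the members and -0.28 over all 9408 genes.

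In T cells 2 of 9 members were called higher and 0 lower, beside 7.33% and 13.6% of all genes. Sdf2l1 was 3.20-fold higher (log2 ratio 1.68, interval 1.36 to 2.02). Its call held in 13 of 13 alternatives, but its log2 ratio ran from 1.06 in CD4 T cells alone to 2.61 as a mean over cells and 3.27 without the 5% of cells with the most UMIs. Among these alternatives the UMI minimums of 1 and 100 only decide which genes enter and cannot change a ratio. For means over cells the interval of the main ratio was kept, so only the 2-fold rule could take a call away. Asns was 2.75-fold higher on 70 UMIs against 6 (log2 ratio 1.46, interval 0.27 to 2.95). Hspa5, at a log2 ratio of 0.91 (0.80 to 1.02), was just below 2-fold, and Atf4 was at -0.48 (-0.66 to -0.30). Chac1, with 0 UMIs in Naïve T cells, was 1.57-fold higher when that sum was set to 3 counts and was not called. The interval of its log2 ratio began at 0.22 and had no upper end. The median was 0.09 over the members and -0.13 over all genes.

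NK cells gave the most calls. There 3 of 6 members were called higher and 0 lower, beside 5.65% and 11.0% of all genes. Sdf2l1 was 4.83-fold higher (log2 ratio 2.27, interval 1.54 to 3.10), Hspa5 2.01-fold (1.01, interval 0.76 to 1.26) and Herpud1 2.09-fold (1.07, interval 0.18 to 2.08). The calls of Hspa5 and Herpud1 lay at the edge of the rule, since Herpud1 kept its call in 5 of 10 alternatives and Hspa5 in 9 of 11. The median was 0.77 over the members and -0.13 over all genes.

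In phagocytes 1 of 7 members was called higher and 0 lower, beside 5.22% and 8.88% of all genes. This was Asns, 2.72-fold higher when its Naïve sum of 0 was set to 3 counts. The interval of its log2 ratio began at 1.07 and had no upper end. Of the 34 Asns UMIs of ConA+Veh phagocytes 30 lay in cells with all 3 C1q genes, of which Naïve had 9 against 108, and the other phagocytes held 4 against 0 UMIs, too few for a ratio. Hspa5 had a log2 ratio of 0.05 (-0.14 to 0.24) and Sdf2l1 of 0.52 (0.18 to 0.88). In endothelial cells, of which there were 40 and 64, Hspa5 was 4.51-fold higher (log2 ratio 2.17, interval 1.72 to 2.66) and Sdf2l1 2.12-fold (1.08, interval 0.19 to 2.08), so 2 of 5 members were called higher and 0 lower, beside 9.34% and 10.5% of all genes. The endothelial call of Sdf2l1 was lost without the 5% of cells with the most UMIs (0.76) and as a mean over cells (0.75). Sdf2l1 was thus called in B, T and NK cells and, less firmly, in endothelial cells.

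Several lists and measures moved together with this comparison, and their part in the members' ratios was not tested. The summed level of 8 immediate early genes, which tissue dissociation is known to induce, was 6327 CPM in Naïve B cells against 937 to 1355 CPM in the ConA libraries, and 5458 CPM in Naïve T cells against 1068 to 1256 CPM. From Naïve to ConA+Veh the same sum went from 6309 to 2364 CPM in NK cells, from 7694 to 3685 CPM in phagocytes and from 3634 to 3808 CPM in endothelial cells. All 8 genes were detected in each of these gates in every library. The 6 cytosolic heat shock genes summed to 2178 CPM in Naïve B cells and 3922 CPM in ConA+Veh, and to 3437 and 5029 CPM in T cells. They summed to 2486 and 3621 CPM in NK cells, to 3521 and 4369 CPM in phagocytes, and to 1707 and 3772 CPM in endothelial cells, where Hspa5 was 4.51-fold higher. The 4 genes that stand for free RNA of red cells went from 4.46 to 101 CPM in T cells, from 5.72 to 29.2 CPM in B cells, from 11.4 to 32.9 CPM in NK cells and from 3.42 to 21.3 CPM in phagocytes, and from 0 to 32.1 CPM in endothelial cells. The 4 hepatocyte genes that stand for free RNA summed to 0.943 to 71.9 CPM in B cells. There 3 of the 4 were at 0 in ConA+TCDD, and the sum was highest in ConA+FICZ. From ConA+Veh to ConA+FICZ the same sum went from 6.96 to 36.6 CPM in T cells and from 22.0 to 64.5 CPM in NK cells. It went from 46.7 to 69.9 CPM in phagocytes, from 34.3 to 202 CPM in neutrophils and from 32.1 to 72.1 CPM in endothelial cells. Median depth also differed, from 2119 UMIs per B cell and 2765 per T cell in Naïve to 4163 and 6842 in ConA+Veh. The median mitochondrial share went from 4.47% to 2.84% in B cells, from 4.39% to 2.81% in T cells and from 4.46% to 2.09% in NK cells.

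**Figure D2:**
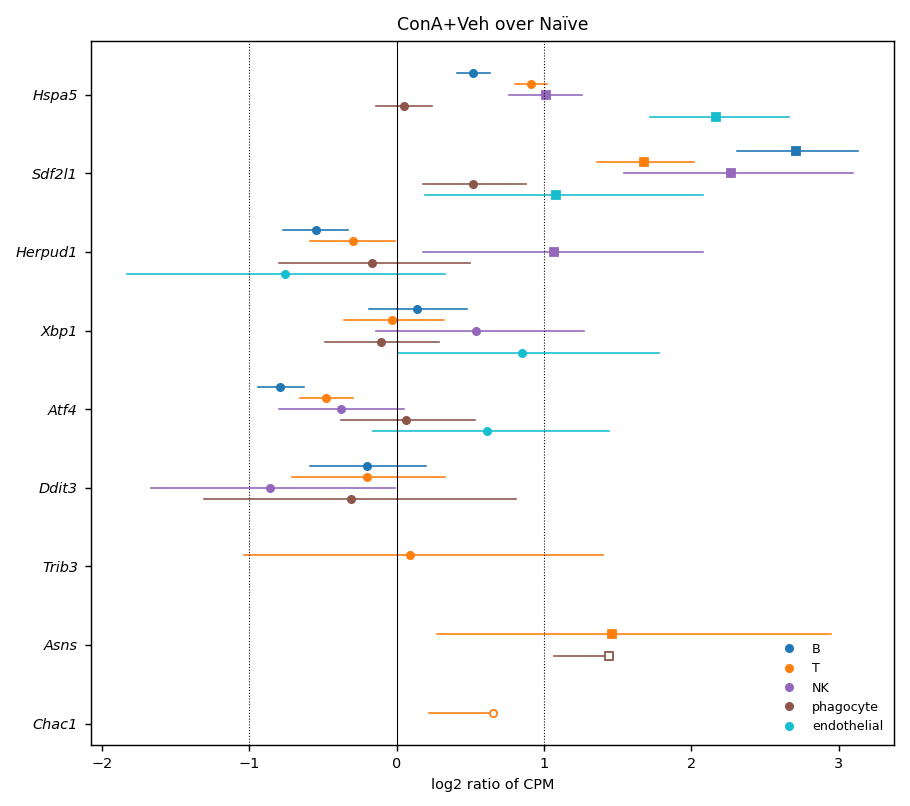
log2 ratio of CPM, ConA+Veh over Naïve, for members that reached 20 UMIs in both libraries together, by gated cell type, with 95% binomial intervals. Squares are called genes, open symbols have a sum of 0 in Naïve that was set to 3 counts and an interval with no upper end, and dotted lines mark 2-fold. Sdf2l1 lies right of the dotted line in B, T, NK and endothelial cells (in the last by a margin that 2 of 8 alternatives took away), and Atf4 and Herpud1 lie left of 0 in B and T cells.

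The other genes of the pathway were read from 6 lists of 76 genes in all, in the whole gates of B cells, T cells and phagocytes only. Of 14 endoplasmic reticulum chaperones, 5 were called higher and 0 lower in B cells, where 7.87% of all genes were called higher, with a median log2 ratio of 0.75 against -0.28 for all genes. In T cells 3 of 14 were called higher, beside 7.33% of all genes, with a median of 0.84 against -0.13, and 13 of 14 ratios were above 0. Among these Canx, the lectin chaperone calnexin, was at 122 CPM in Naïve T cells and 330 CPM in ConA+Veh (log2 ratio 1.44, interval 1.24 to 1.64). Hsp90b1, the Hsp90 of the endoplasmic reticulum, was at 334 and 863 CPM (1.37, interval 1.25 to 1.49). In phagocytes 1 of 14 was called higher and 1 lower, beside 5.22% and 8.88% of all genes, with a median of 0.26 against -0.04, and the lower one was Hyou1, a large Hsp70-related chaperone, at 106 CPM in Naïve and 47.5 CPM in ConA+Veh.

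The 18 genes of degradation and translocation had a median of 0.08 in B cells against -0.28 for all genes, of 0.13 in T cells against -0.13, and of -0.03 in phagocytes against -0.04. Derl3, a channel component of degradation, was at 1.91 CPM in Naïve B cells and 13.0 CPM in ConA+Veh (log2 ratio 2.77, interval 1.47 to 4.44). Dnajb9, a cochaperone of BiP, was lower in T cells, at 36.8 CPM in Naïve and 18.0 CPM in ConA+Veh (-1.03, interval -1.46 to -0.58). Of 18 genes of this list in B cells 2 were called higher and 1 lower, beside 7.87% and 18.5% of all genes. Of 17 with enough UMIs in T cells 0 were higher and 1 lower, beside 7.33% and 13.6%. Of 17 in phagocytes 1 was higher and 0 lower, beside 5.22% and 8.88%.

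The ATF4 targets of amino acid supply had the highest median of the 6 lists in each of these 3 gates. Of the members of this list with enough UMIs, 5 of 9 were called higher in B cells, 4 of 11 in T cells and 6 of 10 in phagocytes, beside 7.87%, 7.33% and 5.22% of all genes, and 0 were called lower in each. Their median was 0.98 in T cells and 1.34 in phagocytes, and that of B cells lay between. Psat1, an enzyme of serine synthesis, was at 11.8 CPM in Naïve B cells and 42.6 CPM in ConA+Veh (log2 ratio 1.85, interval 1.30 to 2.45). In phagocytes Psat1 went from 6.83 to 51.6 CPM on 2 against 63 UMIs (2.92) and Psph, the last enzyme of that pathway, from 3.42 to 21.3 CPM on 1 against 26 UMIs (2.64, interval 0.03 to 8.00). In these cell types Atf4 itself was not higher at the RNA level.

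The 10 tRNA ligases gave 0 calls in B cells, 1 higher in T cells and 0 in phagocytes, with medians of 0.21, 0.64 and 0.02. The stress signalling targets with enough UMIs gave 1 higher and 1 lower of 7 in B cells, 1 higher of 8 in T cells, and 1 of each of 8 in phagocytes. Beside the counts of this paragraph, 7.87% of all genes were called higher and 18.5% lower in B cells. The shares were 7.33% and 13.6% in T cells and 5.22% and 8.88% in phagocytes. Atf3, a factor of this list that is also an immediate early gene, was at 635 CPM in Naïve phagocytes and 203 CPM in ConA+Veh (log2 ratio -1.65, interval -1.93 to -1.36). Of the sensors and phosphatases with enough UMIs, 2 were called higher and 3 lower of 9 in B cells and 1 lower of 10 in T cells. Ppp1r15a, which encodes the inducible eIF2 phosphatase subunit GADD34, was at 632 CPM in Naïve B cells and 67.1 CPM in ConA+Veh (-3.24, interval -3.42 to -3.06), and at 457 and 101 CPM in T cells (-2.18, interval -2.32 to -2.03). Eif2ak4, the kinase GCN2, was at 19.4 and 7.14 CPM in B cells (-1.45, interval -2.12 to -0.79). The immediate early genes described above were also lower in ConA+Veh, and their part in the ratios of Ppp1r15a and Atf3 was not tested.

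**Figure D3:**
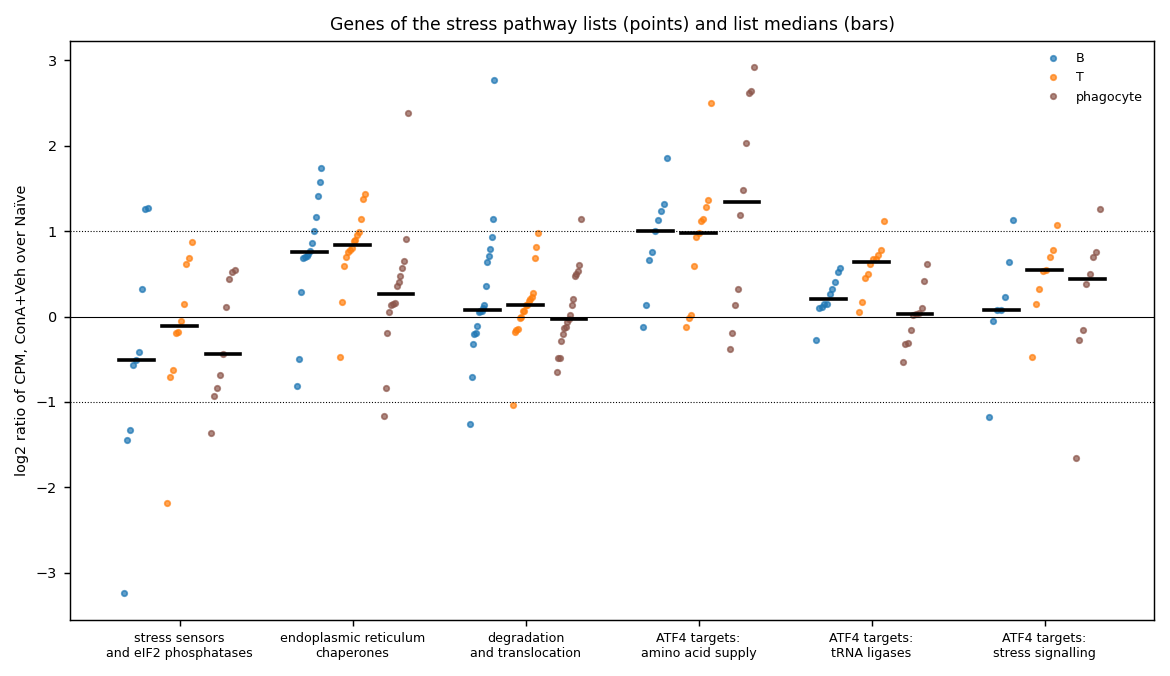
log2 ratio of CPM, ConA+Veh over Naïve, for each gene of 6 pathway lists with at least 20 UMIs (points) in B cells, T cells and phagocytes, with the median of each list (black bars). Dotted lines mark 2-fold. The amino acid supply medians stand at 0.98 to 1.34, the chaperone medians at 0.75 and 0.84 in B and T cells and 0.26 in phagocytes, and the lowest point is Ppp1r15a in B cells.

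B cells, T cells and phagocytes were not the same mixture in the 4 libraries, and the members were therefore also read within subgroups. The share of all genes called was not counted within subgroups, so calls of members there stand without it. The pathway lists were not read within subgroups. For them a change within a cell type and a change of mixture cannot be told apart, in any of the comparisons. Cycling cells, by the rule given next for T cells, made up 0.185% of B cells in Naïve and 12.0%, 11.7% and 6.31% with vehicle, TCDD and FICZ. B cells with UMIs of at least 2 of Mreg, Cd86 and Cd200, here called activated, numbered 23, 33, 57 and 26. From Naïve to ConA+Veh, Hspa5 had a log2 ratio of -0.23 (-0.62 to 0.17) in them and 0.58 (0.46 to 0.70) in other B cells. Sdf2l1 was called higher in both, at 1.33 and 2.91. The T gate also took in cells that passed the NK gate. The NK markers summed to 135 CPM in T cells of Naïve and to 73.0, 40.8 and 57.2 CPM with vehicle, TCDD and FICZ. Their part in the T cell ratios was not tested. T cells with UMIs of at least 2 of 8 cell cycle genes made up 2.52% of T cells in Naïve, 57.3% in ConA+Veh, 36.2% in ConA+TCDD and 36.9% in ConA+FICZ. Among the other T cells, Hspa5 was at 420 CPM in Naïve and 634 CPM in ConA+Veh (log2 ratio 0.59, interval 0.45 to 0.73). Sdf2l1 remained called there, at 36.0 and 99.1 CPM (1.46, interval 1.02 to 1.92), and Asns on 4 and 25 UMIs, at 2.57 and 13.7 CPM (2.41, interval 0.88 to 4.39). The interval of this Asns ratio overlapped that among all T cells. Of the Chac1 UMIs in T cells, the cycling cells held 18 of 20 in ConA+Veh, 16 of 17 in ConA+TCDD and 5 of 8 in ConA+FICZ. The same cells held 5790287 of the 7616055 UMIs of all genes in T cells of ConA+Veh, 3532377 of 5886186 in ConA+TCDD and 3652601 of 6202291 in ConA+FICZ, so most Chac1 UMIs would fall in them at an even level.

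In CD8 T cells, defined by UMIs of Cd8a or Cd8b1 and none of Cd4, Hspa5 passed 2-fold, at 374 CPM in Naïve and 815 CPM in ConA+Veh (log2 ratio 1.12, interval 0.94 to 1.31). In CD4 T cells it was at 363 and 718 CPM (0.98, interval 0.71 to 1.26). The intervals of both ratios overlapped. Among CD8 T cells outside the cycling group Hspa5 was at 376 and 509 CPM (0.44, interval 0.20 to 0.68). Among the CD4 T cells outside that group, 72 in Naïve and 45 in ConA+Veh, Herpud1 was at 104 and 39.4 CPM and called lower (-1.40, interval -2.62 to -0.29). Atf4 was called lower there too, at 237 and 118 CPM, at the edge of 2-fold (interval -1.69 to -0.34). These were 2 of 5 members with enough UMIs, with no share of all genes counted beside them.

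Phagocytes differed in the share of cells with the C1q genes, which mark tissue-resident macrophages such as Kupffer cells. All 3 C1q genes were held by 9 of 64 phagocytes in Naïve, 108 of 185 in ConA+Veh, 11 of 28 in ConA+TCDD and 106 of 177 in ConA+FICZ. Only ConA+Veh and ConA+FICZ thus had enough C1q-positive cells for a level. Among phagocytes with no C1q UMI, 50 in Naïve and 40 in ConA+Veh, Sdf2l1 was at 39.0 CPM (14.3 to 84.9) on 6 UMIs and 275 CPM (210 to 354) on 60. This was 7.05-fold higher in ConA+Veh (log2 ratio 2.82, interval 1.61 to 4.32), whereas in all phagocytes the ratio was 1.44-fold. In the wider set of phagocytes that lacked at least 1 of the 3 C1q genes, 55 and 77 cells, Sdf2l1 was at 113 and 271 CPM, 2.40-fold higher (1.26, interval 0.60 to 1.98), and Hspa5 at 591 and 890 CPM (0.59, interval 0.29 to 0.90). Hspa5 in the cells with no C1q UMI was at 468 CPM (366 to 589) and 894 CPM (773 to 1028), a log2 ratio of 0.93 (0.54 to 1.34). The ratios of Sdf2l1 and Hspa5 in phagocytes thus depended on which cells entered. The 9 C1q-positive phagocytes of Naïve were deep, with a median of 8178 UMIs against 2654 for the cells without C1q. Asns was found mainly in C1q-positive cells, with 36.9 CPM (24.9 to 52.7) for ConA+Veh and 34.4 CPM (22.3 to 50.8) for ConA+FICZ, against 1 UMI and 0 UMIs in cells with no C1q.

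**Figure D4:**
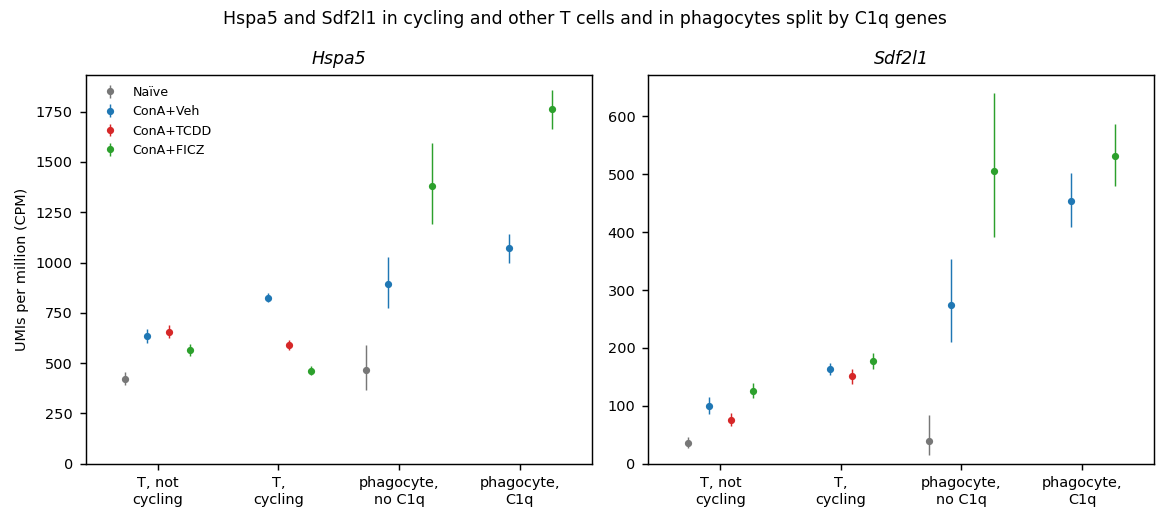
Hspa5 and Sdf2l1 in CPM (linear axes from 0) with 95% Poisson intervals, by library, in T cells split by cell cycle genes and in phagocytes split by C1q genes, for groups of at least 20 cells. Hspa5 of cycling T cells falls in the order ConA+Veh, ConA+TCDD, ConA+FICZ, while in the other T cells ConA+Veh and ConA+TCDD overlap.

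The second comparison, ConA+TCDD over ConA+Veh, addresses how the library with TCDD differed from the library with vehicle after ConA. In B cells 0 of 6 members were called in either direction, beside 1.45% of all genes called higher and 1.81% lower. In T cells it was 0 of 9, beside 0.931% and 1.63%, and in NK cells 0 of 6, beside 0.874% and 1.96%. The members' medians were 0.01 in B, -0.11 in T and -0.22 in NK cells. Smaller differences had intervals that did not include 0. Hspa5 had a log2 ratio of -0.34 (-0.40 to -0.28) in T cells, -0.49 (-0.65 to -0.34) in NK cells and 0.13 (0.02 to 0.23) in B cells. Sdf2l1 was at -0.30 (-0.43 to -0.16) in T cells and Atf4 at 0.30 (0.17 to 0.42) in T cells and 0.29 (0.11 to 0.48) in B cells. Split further, Atf4 was at 0.72 (0.23 to 1.22) in activated B cells, 57 against 33. In the other B cells it was at 0.18 (-0.03 to 0.39), an interval that includes 0. With 1 library per group these intervals leave out the spread between mice. Of the pathway lists in B cells, the tRNA ligases had a median of 0.54, with 10 of 10 ratios above 0. The amino acid supply genes had 0.53, with 8 of 9 above 0, against 0.04 for all genes, and 0 genes of both lists were called. In T cells the same lists had medians of 0.16 (7 of 10 above 0) and 0.00 (6 of 11), against -0.05.

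The T cell ratio of Hspa5 differed between subgroups. Cycling T cells of ConA+Veh held 826 CPM of Hspa5 (802 to 849) and those of ConA+TCDD 590 CPM (565 to 616) (log2 ratio -0.48, interval -0.56 to -0.41). In the other T cells it was at 634 CPM (598 to 671) and 657 CPM (624 to 690) (0.05, interval -0.06 to 0.16). These 2 ratio intervals did not overlap. In CD8 T cells that were not cycling Hspa5 was at 509 and 648 CPM (0.35, interval 0.15 to 0.55), higher in ConA+TCDD. Ddit3 was called lower in the same CD8 T cells on 15 and 5 UMIs (-1.77, interval -3.58 to -0.24). No share of all genes was counted beside that call. The T cell ratio of Sdf2l1 was -0.12 (-0.27 to 0.04) in cycling cells and -0.40 (-0.71 to -0.09) in the others. It was -0.19 (-0.39 to 0.01) in CD8 and 0.09 (-0.20 to 0.39) in CD4 T cells. T cells with UMIs of neither or both markers had -0.76 (-1.02 to -0.51). Across all T cells, 0 of 14 endoplasmic reticulum chaperones had a ratio above 0, with a median of -0.36 against -0.05 for all genes, and 0 were called. The only called pathway gene in T cells was Cth, an enzyme of cysteine synthesis, at 3.94 CPM in ConA+Veh and 1.36 CPM in ConA+TCDD (-1.54, interval -2.87 to -0.38).

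Among the B, T, NK and phagocyte gates, only phagocytes gave calls of members in this comparison, with 28 cells in ConA+TCDD against 185 in ConA+Veh. Of 7 members, 2 were called lower and 0 higher, beside 2.76% of all genes called lower and 4.56% higher. Hspa5 was 2.20-fold lower in ConA+TCDD (log2 ratio -1.14, interval -1.46 to -0.83), and Sdf2l1 was 3.06-fold lower (-1.61, interval -2.24 to -1.05). Atf4 went the other way without passing 2-fold (0.86, interval 0.45 to 1.26). Both sets of C1q cells in ConA+TCDD held 11 cells, too few for a level. In the same 28 cells the granulocyte progenitor markers summed to 173 CPM against 81.9 CPM in ConA+Veh, the cytosolic heat shock genes to 2573 CPM with 1 of 6 at 0 against 4369 CPM, and 28.6% of cells were cycling against 19.5%, and the part of these in the Hspa5 and Sdf2l1 ratios was not tested. The Hspa5 call was lost when 1 more marker was required (-0.87) and when cells were thinned to 1000 UMIs (-0.90), and the Sdf2l1 call held in 11 of 11 alternatives. Chaperones as a list had a median of -0.76 against -0.01, with 2 of 14 called lower, among them Creld2, a cochaperone, at 209 and 93.8 CPM (-1.15, interval -1.91 to -0.48). Other named genes were Slc7a5, an amino acid transporter, at 27.8 and 69.1 CPM (1.31, interval 0.30 to 2.25), and Wars, the tryptophan tRNA ligase, at 42.6 and 104 CPM (1.28, interval 0.48 to 2.04). Gdf15, a secreted stress cytokine, was at 65.5 CPM in ConA+Veh and listed at 0 in ConA+TCDD (interval of the ratio below -1.81). In neutrophils, 33 against 73 cells, Ddit3 was 4.20-fold higher in ConA+TCDD on 14 UMIs, 7 of them in 1 cell, against 9 (2.07, interval 0.76 to 3.46), so 1 of 4 members was called higher and 0 lower, beside 4.22% and 2.19% of all genes.

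The third comparison, ConA+FICZ over ConA+Veh, sets the other AhR ligand against the same vehicle library. The dose of FICZ is not given in the sources used here, so the values of both ligands stand side by side and were not compared. In B cells 0 of 7 members were called in either direction (1.96% of all genes higher, 1.60% lower), in T cells 0 of 9 (1.02% and 2.27%), in NK cells 0 of 6 (1.84% and 2.69%) and in phagocytes 0 of 7 (3.63% and 2.45%). Hspa5 nevertheless had intervals on 1 side of 0 in each. Its log2 ratio was -0.28 (-0.37 to -0.19) in B cells, -0.63 (-0.69 to -0.57) in T cells, -0.74 (-0.91 to -0.57) in NK cells and 0.64 (0.54 to 0.75) in phagocytes. As whole gates, B, T and NK cells were thus lower and phagocytes higher in ConA+FICZ. Among T cells that were not cycling, Hspa5 was at -0.03 (-0.24 to 0.17) in CD8 and -0.55 (-0.83 to -0.26) in CD4 T cells. It was at 0.15 (-0.19 to 0.48) in activated B cells and -0.31 (-0.41 to -0.22) in other B cells. Sdf2l1 was at -0.45 (-0.63 to -0.28) in B cells, 0.08 (-0.05 to 0.20) in T cells, -0.48 (-0.81 to -0.15) in NK cells and 0.38 (0.20 to 0.56) in phagocytes.

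The direction in phagocytes was the same in both subgroups. C1q-positive cells of ConA+Veh held 1070 CPM of Hspa5 (1000 to 1143) and those of ConA+FICZ 1761 CPM (1666 to 1860), a log2 ratio of 0.72 (0.59 to 0.84). Cells with no C1q UMI held 894 CPM (773 to 1028) and 1382 CPM (1191 to 1596), a log2 ratio of 0.63 (0.33 to 0.93). In the wider set that lacked at least 1 C1q gene Hspa5 was at 890 and 1116 CPM, a log2 ratio of 0.33 (0.10 to 0.55). All 3 ratios were below 2-fold. Of the phagocytes of ConA+FICZ 5.08% were cycling against 19.5% in ConA+Veh. Their hepatocyte genes that stand for free RNA summed to 69.9 CPM against 46.7 CPM in ConA+Veh. Cells of the hepatocyte gate in ConA+FICZ held 1295 CPM of Hspa5 and 658 CPM of Sdf2l1. The part of these in the phagocyte ratios was not tested. In phagocytes Hyou1 was at 47.5 and 134 CPM (log2 ratio 1.50, interval 1.04 to 1.96), the 1 chaperone of 14 called higher. Of that list 13 of 14 had ratios above 0, with a median of 0.22 against 0.10 for all genes. The amino acid supply genes had a median of -0.37, with 2 of 10 above 0 and 0 called. Gdf15 was at 65.5 and 5.91 CPM (-3.47, interval -4.96 to -2.29).

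In T cells the Hspa5 difference again lay mainly in the cycling cells, which stood at 826 CPM (802 to 849) with vehicle and 461 CPM (440 to 484) with FICZ (log2 ratio -0.84, interval -0.92 to -0.76). The other T cells held 634 CPM (598 to 671) and 565 CPM (536 to 595) (-0.17, interval -0.28 to -0.05). Sdf2l1 did not follow Hspa5 there, at 164 CPM (153 to 174) and 178 CPM (164 to 192) in cycling T cells. Across all T cells 1 of 14 endoplasmic reticulum chaperones had a ratio above 0, with a median of -0.36 against -0.01 for all genes. Ero1lb, an oxidase of that list, was the 1 pathway gene called in T cells, at 12.5 and 5.32 CPM (-1.23, interval -1.85 to -0.64). It stood beside 2.27% of all genes called lower. In B cells the chaperones had a median of -0.26 against 0.03, with 3 of 14 above 0. The tRNA ligases there had 0.33, with 10 of 10 above 0, and 0 genes of both lists were called. In neutrophils Asns was 7.63-fold higher in ConA+FICZ on 19 UMIs against 1 (2.93, interval 0.28 to 8.31), so 1 of 6 members was called higher and 0 lower, beside 8.18% and 2.65% of all genes. In endothelial cells, 38 against 64, 0 of 5 members were called (2.74% of all genes higher, 2.27% lower), with Hspa5 at -0.49 (-0.76 to -0.23). This comparison and the one with TCDD share the ConA+Veh library.

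**Figure D5:**
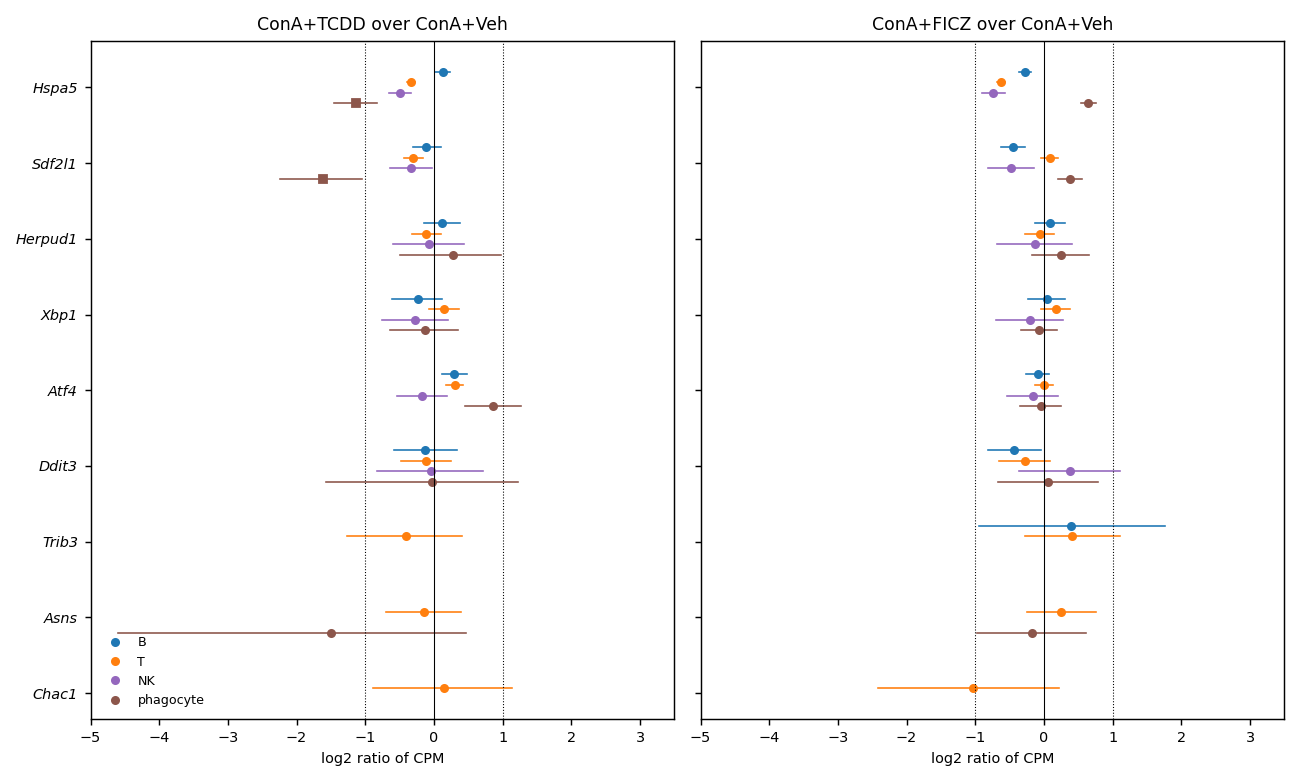
log2 ratio of CPM for ConA+TCDD (left) and ConA+FICZ (right) over ConA+Veh, by gene and gated cell type, with 95% binomial intervals, for members that reached 20 UMIs in both libraries together. Squares are called genes and dotted lines mark 2-fold. Of the 4 gates drawn (B, T, NK and phagocytes), the 2 squares are Hspa5 and Sdf2l1 in phagocytes of ConA+TCDD, and all points of ConA+FICZ lie within 2-fold or have intervals that include 0.

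Across the 20 groups of gate and library with at least 50 cells, the genes whose log2(CPM + 10) followed each member most closely were sought among 9416 genes. These groups share libraries and depth, so the correlations describe likeness only. Hspa5 was most like Calr, the lectin chaperone calreticulin (Pearson r = 0.95), Atp2a2, the calcium pump of the endoplasmic reticulum (0.92), and Tubb6 (0.90). Sdf2l1 was most like Pdia3 (0.96) and Pdia6 (0.94), both protein disulfide isomerases, and Ppib (0.96), a prolyl isomerase of the same compartment. Calr, Pdia3, Pdia6 and Ppib fold proteins in the endoplasmic reticulum, and Tubb6 is a tubulin. Xbp1 was most like Xdh (0.94), Chmp2a (0.94) and Cebpg (0.92), and Atf4 like Ptbp3, Hipk1 and Rnf25 (each 0.92). Ddit3 was most like Pcyt1a (0.86), Fam32a (0.84) and Vcpip1 (0.80), Herpud1 like Pctp (0.80), Acadm (0.78) and Btd (0.77), and Asns like Cxcl10 (0.83), Mob1b (0.79) and Bcl2l1 (0.77). Trib3 and Chac1 had fewer than 200 UMIs and were left out. Among the members themselves, Hspa5 and Sdf2l1 had r = 0.85, Hspa5 and Xbp1 0.58, and Atf4 and Sdf2l1 -0.62.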

How the data were processed

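The authors prepared the libraries with a 10x Genomics kit for the start of transcripts, aligned the reads to mm10 and counted them with Cell Ranger 3.0.2, and the deposited values are raw UMI counts per gene and cell barcode for the cells kept by that program. Libraries shared 4 to 15 barcodes in pairs. Cells were gated by marker genes (at least 3 of the list for plasma cells and hepatocytes, 2 for others), with no doublet caller. Where gates overlapped, T was taken before NK, plasma before B, conventional dendritic before mononuclear phagocyte, and granulocyte progenitor before neutrophil. Plasmacytoid dendritic came before conventional dendritic and before plasma. Other cells in 2 gates were set aside. Counts were summed per gate and library and divided by all UMIs. Poisson intervals of sums and binomial intervals of ratios were exact at 95%, and a sum of 0 was set to 3 counts in a ratio. With 1 library per group no test was made. Named are the 9 members, the 2 highest and 2 lowest called pathway genes per comparison and main gate, and the 3 most alike genes per member. The members and lists were chosen with earlier results of these data known. Motifs were searched by letters. The ratios and calls were tested on simulated Poisson sums, which hold no spread between mice and no clumping of UMIs in single cells. Alternatives were other gates, cell filters, totals, thinning to 1000 UMIs, UMI minimums of 1 and 100, subsets of cells, and means over cells. Intervals came from scipy 1.17.1, tables from pandas 2.3.3 and numpy 2.4.6, and figures from matplotlib 3.10.9, under Python 3.11.15.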

Additional observations from a re-analysis of the deposited data

Results flagged for a closer look

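Some members had intervals on opposite sides of 0 in different gates under the same comparison, and none of these differences between gates was tested. For ConA+TCDD over ConA+Veh, Hspa5 had a log2 ratio of 0.13 in B cells, against -0.34 in T cells, -0.49 in NK cells and -1.14 in phagocytes. For ConA+FICZ over ConA+Veh, Hspa5 was at 0.64 in phagocytes, against -0.28 in B, -0.63 in T and -0.74 in NK cells. Sdf2l1 in that comparison was at 0.38 in phagocytes, against -0.45 in B and -0.48 in NK cells. For ConA+Veh over Naïve, Herpud1 was at 1.07 in NK cells, against -0.55 in B and -0.30 in T cells.

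Cells that passed no gate were outside the comparisons by cell type, and members were called there too. For ConA+Veh over Naïve their Hspa5 was at 1258 against 550 CPM (log2 ratio 1.19) and their Sdf2l1 at 121 against 43.7 CPM (1.47), beside 14.0% of all genes called higher. Ddit3 in cells with no gate was at 20.9 CPM in ConA+Veh, 46.4 CPM in ConA+TCDD (1.15, beside 2.12% of all genes) and 55.1 CPM in ConA+FICZ (1.40, beside 5.43%). These cells were shallow, with a median of 891 to 1538 UMIs. Cells set aside for passing 2 gates were also outside, and were deeper, with a median of 12393 UMIs in ConA+Veh. There Asns was called higher in ConA+TCDD, at 33.5 against 15.5 CPM on 55 and 52 UMIs (1.12, interval 0.54 to 1.69). Chac1 was called lower in ConA+FICZ on 5 against 20 UMIs (-1.54, interval -3.31 to -0.08). Each was 1 of 9 members, and no share of all genes was counted for these cells.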

How the results depend on the processing

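Of 111 alternative values of the 9 members' medians (3 comparisons in B cells, T cells and phagocytes), 101 stayed within the counting interval of the middle member. Where the middle fell between members, their interval ends were averaged. This is the counting error of single members, not an interval of the median. Of 1132 alternative ratios of single members 170 left the interval of the main ratio and 0 called ones changed sign, and of 756 alternative levels 260 left theirs. Without a correction for depth (mean UMIs per cell), the ConA+Veh over Naïve medians were 1.19 in B cells, 1.44 in T cells and 0.58 in phagocytes, and the ConA+FICZ median in T cells was 0.19. With 1 marker fewer per gate the ConA+FICZ median in B cells was -0.33 and the ConA+TCDD median in phagocytes -0.80. Thinning gave 0.56 (ConA+Veh over Naïve) and -1.15 (ConA+TCDD) in phagocytes, leaving out the deepest 5% of cells gave -0.19 there for ConA+Veh over Naïve, and CD4 T cells alone, added after the data had been seen, gave 0.29 for ConA+TCDD. The cause of these shifts was not tested, except that those without a correction for depth follow from depth by construction. Cells of these gates were deeper in ConA+Veh than in Naïve. T cells of ConA+FICZ were deeper than those of ConA+Veh, with a median of 8096 against 6842 UMIs. Sdf2l1 kept its ConA+Veh call in 12 of 12 alternatives in B cells (2.42 to 3.93), 13 of 13 in T cells (1.06 to 3.27) and 11 of 11 in NK cells (1.94 to 3.10), and Asns in T cells in 9 of 10, lost in CD8 T cells. In CD8 T cells the Asns ratio was 1.33 (-0.30 to 3.67). CD4 T cells held too few Asns UMIs for a ratio, 8 in ConA+Veh and 2 in Naïve, at 5.97 and 5.91 CPM. In endothelial cells the Sdf2l1 call held in 6 of 8. Such tallies, and the 1132 ratios, count the UMI minimums of 1 and 100 wherever a gene passed them, and these cannot change its ratio. They also count the ratio without a correction for depth, which depth moves upward for ConA+Veh over Naïve, so a higher call could hardly be lost there. It gave the highest Sdf2l1 values in B cells (3.93) and NK cells (3.10), and 1.90 for Herpud1 in NK cells. For this ratio and for the mean over cells the interval of the main ratio was kept, so only the 2-fold rule could take a call away. Levels were not given as mean UMIs per cell, which is another unit, and C1q-positive phagocytes could not be compared with Naïve (9 cells) or ConA+TCDD (11 cells). No paired analysis was possible because each group holds 1 library. Counting intervals leave out the spread between mice and the clumping of UMIs in single cells, and members with fewer than 20 UMIs in a pair of libraries, often Trib3, Asns and Chac1, have no ratio.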

Other observations

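Hepatocytes are not mononuclear cells, but 98 cells of ConA+FICZ and 21 of Naïve passed the hepatocyte gate. In ConA+FICZ they held 1295 CPM of Hspa5 (interval 1137 to 1468), 658 CPM of Sdf2l1 (547 to 784) and 207 CPM of Herpud1 (147 to 283). The Herpud1 level stood above that of every other gate of at least 20 cells in that library. Atf4 was at 53.1 CPM (25.4 to 97.6) in these cells, below the B cells of the library. The Naïve cells held 0 UMIs of Hspa5 and of Sdf2l1, with an upper interval end of 89.8 CPM. The median cell of both groups held 0% mitochondrial UMIs, and the median depth was 1544 and 1087 UMIs, so these barcodes differ from the other gates in more than type.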
